A study of Mus musculus with 8 samples.

Results

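The Gcg-dominant L cells are single sorted cells from intestinal organoids of a mouse line that reports expression of Gcg, the gene of proglucagon. They were taken from the 2 plates named Gcg-Venus 1 and Gcg-Venus 2 and chosen by their own transcripts. A well was kept when it held at least 2000 transcripts outside spike-in and mitochondrial rows and Kcnq1ot1 made up less than 5% of them. A kept well was a member when Gcg reached at least 100 per 10000 transcripts and exceeded Nts, the gene of neurotensin. This gave 138 members among 346 kept wells of the 768 on the 2 plates, in a series of 3072 wells. The kept wells with the same floor for Nts and more Nts than Gcg, 104 in all, served as the comparison and are called Nts-dominant. All organoids carried the Gcg reporter on the C57BL/6 strain, and each plate held untreated cells, cells given BMP4 for 24 h and cells given BMP4 for 4 days. The conditions lie in side-by-side column blocks of each plate, so condition and plate position cannot be told apart. The plates are the replicates (n = 2), and the labels are silent on whether each was grown as its own culture. With plate in the fits, the p-values rest mainly on how far differences between groups of wells vary from plate to plate. That variation may be technical. The fits also draw each gene's variation towards that of the other genes tested, so no p-value rests on the plates of its own gene alone.

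L cells are enteroendocrine cells that cleave proglucagon into GLP-1 and GLP-2, peptides that raise insulin secretion and support gut growth. They release them when nutrients reach the gut, often together with peptide YY (Pyy), cholecystokinin (Cck) or neurotensin, which slow gastric emptying and curb appetite. BMP ligands are most active towards the villus tip and act through receptor kinases and Smad proteins. Smads induce the Id genes, which encode inhibitors of basic helix-loop-helix transcription factors, and the inhibitory Smads 6 and 7.

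The members held a median of 11106 transcripts per well (range 2040 to 32903), and the Nts-dominant wells held 8562 (2049 to 42676). Members held a median of 9485 transcripts untreated and 12972 after 24 h of BMP4. For tests, wells of the same class, plate and condition were summed where at least 5 wells allowed it, which left 10 sums of 48606 to 450451 transcripts outside Gcg, Nts and Kcnq1ot1. Levels in sums are counts per 1000000 of that total (CPM), and levels in wells are transcripts per 10000. The method counts 3' ends of molecules, so a level has no term for transcript length. Of 138 members, 132 held at least 100 Cck transcripts per 10000, and 129 held Fap and 133 held Etv1 at any level. The given markers were thus present, but not in members alone. In untreated Nts-dominant wells of plates 1 and 2, Fap was found in 8 of 9 and 7 of 7 and Etv1 in 9 of 9 and 6 of 7. Cck reached 100 per 10000 there in 5 of 9 and 2 of 7.

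The promoter that the reporter and the membership rule both rest on is shown first, as the 250 bases before the Gcg start (RefSeq, GRCm38.p6, chr2:62483654-62483903, minus strand). The capitals mark TAAT read on either strand, the core bound by many homeodomain factors, a family that includes Isl1 of endocrine cells.
Gcg: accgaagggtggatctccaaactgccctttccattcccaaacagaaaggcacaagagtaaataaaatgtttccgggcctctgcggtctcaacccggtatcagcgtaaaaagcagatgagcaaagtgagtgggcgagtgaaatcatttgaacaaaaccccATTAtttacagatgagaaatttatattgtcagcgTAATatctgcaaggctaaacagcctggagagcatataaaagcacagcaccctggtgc
The window holds 2 matches, and 54.9% of 32851 windows of the same length hold at least 1, so a match is common and describes only the letters.
The gene spans chr2:62474530-62483650 in the GENCODE annotation.

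Gcg and Nts levels chose the members and are given as a description. On plate 1, Gcg ranged from 432 to 2272 per 10000 in 26 untreated members, with a median of 947. In 28 members after 24 h of BMP4 it ranged from 162 to 2353, with a median of 443. On plate 2, the 47 untreated members ranged from 117 to 2141 with a median of 1130, and the 34 members at 24 h ranged from 114 to 1700 with a median of 554. The 24 h median was thus below the untreated one on each plate, while the ranges overlapped widely. Gcg made up 11.3% of all transcripts of the untreated members and 7.46% of those at 24 h. Every member held some Nts, with a median of 9.89 per 10000. That is about the level in 79 kept wells in which Gcg, Nts, Gip and Sst were each under 100 per 10000, called reference wells here, where the Nts median was 7.59 untreated and 10.7 at 24 h. In these reference wells the Gcg median was 20.2 untreated and 32.9 at 24 h. It lies below that of the members by definition, since reference wells were chosen with Gcg under 100 per 10000.

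Few members lay near the limits. Gcg exceeded Nts at least 4 times over in 133 of 138 members, and Nts also passed 100 per 10000 in 5 of them. The 3 members just inside the Gcg floor held 114, 117 and 128 per 10000, and the 3 wells just outside it held 84.5, 86.7 and 93.1. The 3 members closest to the Nts limit held 203, 526 and 537 Gcg per 10000 beside 173, 415 and 414 Nts per 10000. The 3 closest Nts-dominant wells held 346, 247 and 334 Gcg per 10000 beside 464, 258 and 344 Nts per 10000. Among Nts-dominant wells, Gcg also passed 100 per 10000 in 11 of 16 untreated wells, in 5 of 32 at 24 h and in 1 of 56 at 4 days.

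**Figure D1:**
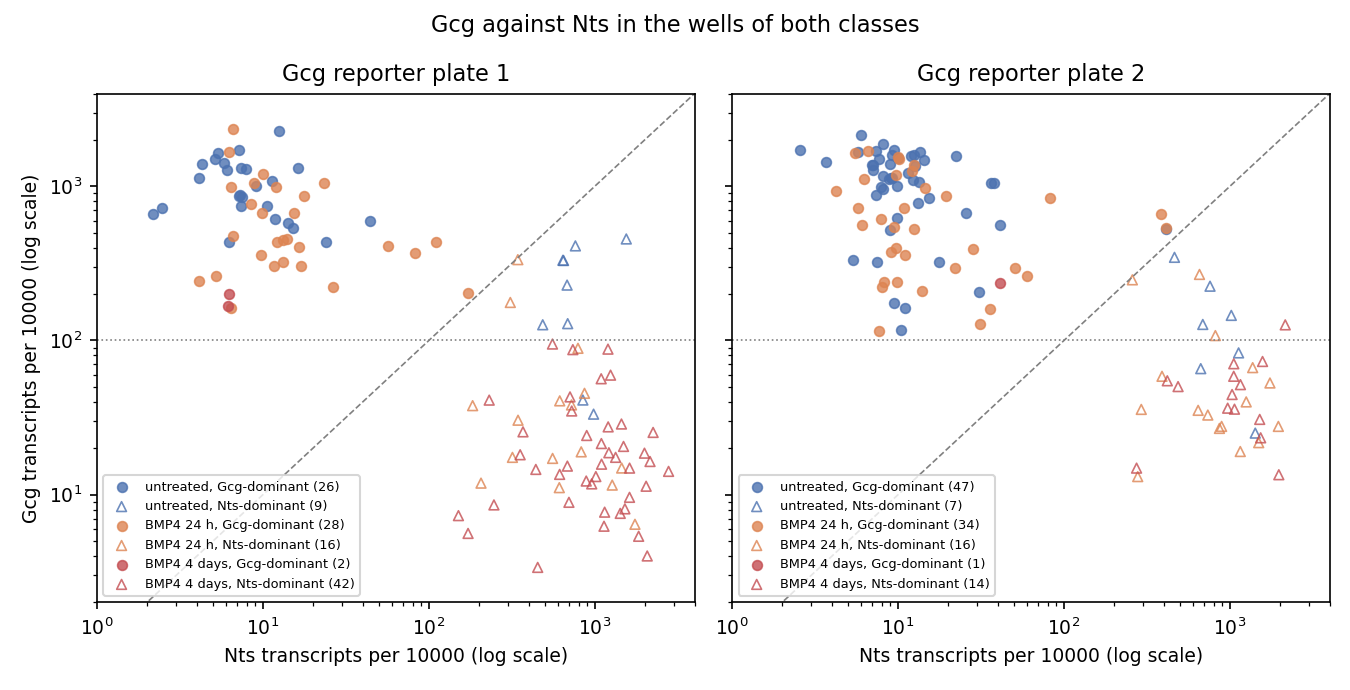
Gcg against Nts transcripts per 10000 in each well of the 2 classes, on log axes, with plate 1 left and plate 2 right; the dotted line is the Gcg floor of 100 and the dashed line is equal Gcg and Nts. Most of the 138 Gcg-dominant wells (filled) sit near 10 Nts transcripts per 10000, and 3 of them are from 4 days of BMP4.

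The share of kept wells that were members differed between conditions, and so did the share of wells kept. Over both plates, 121 of 192 untreated wells were kept, 136 of 192 at 24 h and 89 of 384 at 4 days. At 4 days 18 of 192 wells were kept on plate 2. On plate 1, 26 of 51 kept untreated wells were members (51.0%, exact binomial 95% interval 36.6 to 65.2), as were 28 of 59 at 24 h (47.5%, 34.3 to 60.9) and 2 of 71 at 4 days (2.82%, 0.343 to 9.81). On plate 2 the counts were 47 of 70 untreated (67.1%, 54.9 to 77.9), 34 of 77 at 24 h (44.2%, 32.8 to 55.9) and 1 of 18 at 4 days (5.56%, 0.141 to 27.3). Nts-dominant wells made up 13.2% of kept wells untreated, 23.5% at 24 h and 62.9% at 4 days over both plates. Membership was read at the time of sorting, so fewer L cells and less Gcg per cell cannot be told apart in these shares. The part of wells lost to the transcript and Kcnq1ot1 limits in these shares was not tested. Intervals cover counting error only, and with 2 plates no test was made.

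Cck was the other abundant hormone of the members. Its median was 377 per 10000 (96 to 955) in untreated members of plate 1 and 400 (18 to 825) in those of plate 2. After 24 h of BMP4 it was 565 (80 to 1075) and 489 (43 to 959). At 24 h, Cck exceeded Gcg in 32 of 62 members, against 7 of 73 untreated members. Pyy was uneven from well to well: it was not found in some members and reached 568 per 10000 untreated and 1354 at 24 h. Pyy passed 100 per 10000 in 17 of 73 untreated members and 30 of 62 at 24 h. Sct, the gene of secretin, which triggers bicarbonate release from the pancreas, passed 100 per 10000 in 1 of 73 untreated members and in 33 of 62 at 24 h. Gip, the incretin gene of K cells, passed 100 per 10000 in 9 members, and Ghrl, the ghrelin gene, in 7. Sst and Tac1 did so in none of the 138. Insl5, a peptide of colonic L cells, was found in 8 members, at most at 2.93 per 10000.

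To compare shares at equal depth, every member was thinned to 2000 transcripts and a hormone was called present from 5 transcripts on. Cck was then present in 98.9% ± 1.5 of untreated members (mean of 2 plates, SD) and 100% of members at 24 h. Pyy was present in 55.2% ± 8.91 untreated and 70.7% ± 4.01 at 24 h. Sct was present in 36.7% ± 8.33 untreated and 74.6% ± 5.65 at 24 h, so the plates of the 2 conditions did not overlap. Without thinning, the shares were 86.4% and 98.5% for Sct, and 72.7% and 87.8% for Pyy. Reference wells (median depths 8832 and 14642 transcripts before thinning) were thinned and called in the same way. There, Sct was present in 4.17% of 24 untreated wells and 28.0% of 25 wells at 24 h, and Pyy in 0% and 16.0%. The thinned member shares were above these in each condition. The reference wells were not free of hormone cells: at 24 h single wells reached 885 Sct, 1125 Pyy and 533 Cck per 10000, so their shares include such cells and are not a pure background.

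**Figure D2:**
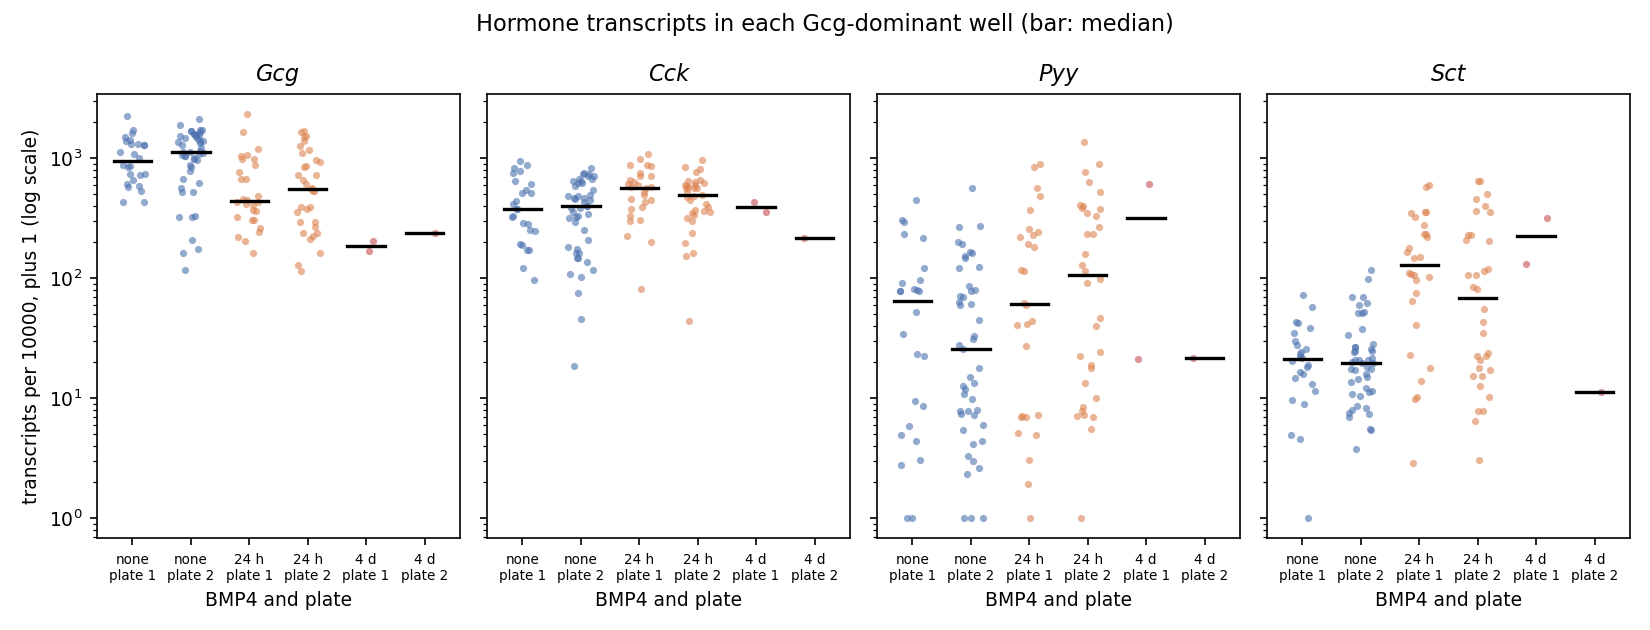
Transcripts of Gcg, Cck, Pyy and Sct per 10000, plus 1, in each Gcg-dominant well, on a log axis, by BMP4 condition and plate; bars are medians. The Sct medians are 20.1 and 18.7 untreated against 128 and 67.5 at 24 h, and the Cck medians of these conditions lie between 377 and 565. At 4 days the bars rest on 2 wells of plate 1 and 1 well of plate 2, with Cck at 390 and 214.

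Members differed from Nts-dominant wells in 197 of 6229 genes tested, which is 3.16% of them: 91 were higher (1.46%) and 106 lower (1.7%) in members (edgeR quasi-likelihood test, Benjamini-Hochberg adjusted p under 0.05, plate and condition in the fit). Higher genes included the homeodomain regulator Nkx2-2 and genes of nutrient uptake and sensing. Lower genes included the granule genes Chga and Pcsk1n, the somatostatin receptor Sstr1 and the exocytosis gene Rab3b. Cck, a marker given for the members, ranged from 48323 to 55605 CPM in the 4 member sums and from 5742 to 20752 CPM in the 6 Nts-dominant sums, with no overlap. As a description, its difference was 1.78 ± 0.29 (log2, SE). The other given markers did not pass: Fap differed by 1.03 ± 0.37 (adjusted p = 0.31) and Etv1 by 0.40 ± 0.16 (adjusted p = 0.22). Both depended on the setting: Fap passed in 7 of 18 alternatives, DESeq2 among them (adjusted p 9.6e-14 to 0.63 over all 18), and Etv1 in 3 of 18 (0.011 to 0.96). Among 6 hormone genes tested, none but Cck passed in this fit; Pyy differed by 0.34 ± 0.42, Sct by -0.41 ± 0.25 and Gip by 3.79 ± 1.04 (adjusted p = 0.20). Sct passed, lower in members, with at least 10 wells a sum (-0.92, adjusted p = 0.0019) and in 24 h wells alone, settings in which Cck did not pass. Gip passed with DESeq2 and without plate 1 (adjusted p = 5.4e-46).

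The 21 transcription factors of enteroendocrine cells tested had a median log2 difference of 0.01, against 0.00 over all genes. Nkx2-2, a homeodomain factor needed for endocrine subtype choice, stood at 209 and 161 CPM in members of plate 1 (untreated, then 24 h) and at 250 and 180 CPM on plate 2. In Nts-dominant wells it stood at 127, 7.27 and 69.5 CPM on plate 1 (untreated, 24 h, 4 days) and at 61.7, 9.96 and 29.0 CPM on plate 2. Every member sum was above every Nts-dominant sum, and the difference was 2.42 ± 0.39 (log2, SE, adjusted p = 0.00013). Tbx3, a T-box repressor, was lower, at -0.95 ± 0.24 (adjusted p = 0.013), a call lost when either plate was left out. Fev differed by 0.54 ± 0.17 and did not pass.

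Of 11 nutrient and hormone receptors and transporters tested, 2 were higher and 1 was lower. Slc15a1, the intestinal transporter of di- and tripeptides, stood at 338 and 295 CPM in members of plate 1 and 438 and 573 CPM on plate 2, against 92.3 to 211 CPM in Nts-dominant sums. It was higher by 1.29 ± 0.21 (log2, SE, adjusted p = 5.1e-05). The higher ones were Slc15a1 and Gpr119 and the lower one Sstr1. Outside that list, Slc5a10, a sodium-coupled transporter of fructose and mannose, stood at 110 and 80.5 CPM on plate 1 and 160 and 118 CPM on plate 2. The Nts-dominant sums held 0 to 24.9 CPM of Slc5a10, and the difference was 2.96 ± 0.50 (adjusted p = 5.7e-05). It was found in 36 of 138 members, and at 24 h a single well held 46.3% of its counts. Gpr119, a receptor for fatty acid amides that raises GLP-1 release, was higher by 1.01 ± 0.28 (adjusted p = 0.032), a call lost when either plate was left out and with DESeq2. Nr1h4, the bile acid receptor FXR and also outside the list, was higher by 2.56 ± 0.57 (adjusted p = 0.0032), with the same losses.

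Secretory and electrical genes went both ways. Of 22 granule and processing genes tested, 2 were higher and 4 were lower, with a median of 0.31; Rab3b, described further on, was the fourth of the lower ones. Ptprn2, a phosphatase-like protein of dense core granules, was higher by 1.04 ± 0.15 (adjusted p = 4.9e-06), at 1550 to 2041 CPM against 600 to 1254 CPM. Scg2, secretogranin II, was higher by 0.63 ± 0.14 (adjusted p = 0.00235). Chga, chromogranin A, stood at 444 and 492 CPM in members of plate 1 and 526 and 351 CPM on plate 2, against 669 to 1358 CPM. It was lower, at -0.98 ± 0.16 (adjusted p = 2.4e-05), and the call was lost without plate 2 and without wells rich in enterocyte genes. Pcsk1n, an inhibitor of the prohormone convertase PC1/3, stood at 64.6 to 197 CPM in members and 173 to 1315 CPM in Nts-dominant sums, so the ranges overlapped, and was lower in the fit, at -1.84 ± 0.20 (log2, SE; adjusted p = 4e-09). Syt7, a calcium sensor of exocytosis, was lower, at -0.66 ± 0.17 (adjusted p = 0.0136). The 10 excitability genes tested had a median of 0.02. Among them Abcc8 (1.02 ± 0.22), the sulfonylurea receptor subunit of ATP-sensitive potassium channels, was higher. Lower ones were the T-type calcium channel Cacna1h (-0.97 ± 0.26) and the sodium channel Scn3a (-0.98 ± 0.25). These 3 calls were lost without plate 2, and those of Cacna1h and Scn3a also without plate 1 and with DESeq2. Ddc, the decarboxylase that makes serotonin and dopamine, was higher by 0.97 ± 0.17 (adjusted p = 0.00016), at 604 to 890 CPM against 189 to 603 CPM.

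The most negative differences lay in genes of varied roles. Prss32, a serine protease, stood at 26.6 and 5.97 CPM in members of plate 1 and 20.6 and 17.8 CPM on plate 2, against 139 to 346 CPM in Nts-dominant sums. The log2 difference was -3.87 ± 0.32 (adjusted p = 3.8e-12), and it was found in 14 of 138 members and 60 of 104 Nts-dominant wells. Car4, a membrane carbonic anhydrase, was lower, at -3.94 ± 0.39 (adjusted p = 2.4e-09), and Rab3b, a GTPase of vesicle release, at -3.64 ± 0.35 (adjusted p = 1.1e-09). Uchl1, a neuronal deubiquitinase, stood at 15.5 to 49.4 CPM against 116 to 389 CPM, a difference of -3.06 ± 0.32. Sstr1, a receptor for somatostatin, which restrains hormone release, was lower, at -2.34 ± 0.44 (adjusted p = 0.00058), and Nt5e, the ectonucleotidase CD73, at -2.90 ± 0.28 (adjusted p = 1.9e-10). Rassf9, Clstn2, Serpina1e, AW551984, Prrx2 and Rcn1 completed the 10 most negative differences among genes open to naming, between -4.69 and -3.29. Among the largest positive differences, Pdgfb, a growth factor subunit, stood at 42.2 to 98.7 CPM in members and 0 to 9.92 CPM in Nts-dominant sums. It was higher by 4.66 ± 0.80 (adjusted p = 9.4e-05), and was found in 45 of 138 members. In 3 of the genes that follow, a sum of Nts-dominant wells at 4 days exceeded every member sum: Coch at 69.5 CPM against 19.0 to 56.7, Sel1l3 at 99.2 against 45.6 to 77.6, and Hmgn3 at 125 against 38.0 to 116. In the fit, Fmo1, a flavin monooxygenase, was higher by 3.37 ± 0.65, Coch by 4.11 ± 0.94, Ctsh, a lysosomal protease, by 2.70 ± 0.76, Hmgn3 by 2.37 ± 0.56 and Sel1l3 by 2.25 ± 0.56. Reg4 had the most positive fitted difference of those open to naming (5.40 ± 0.81) but was found in 8 of 138 members, and 1 well held 88 of its 127 counts.

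**Figure D3:**
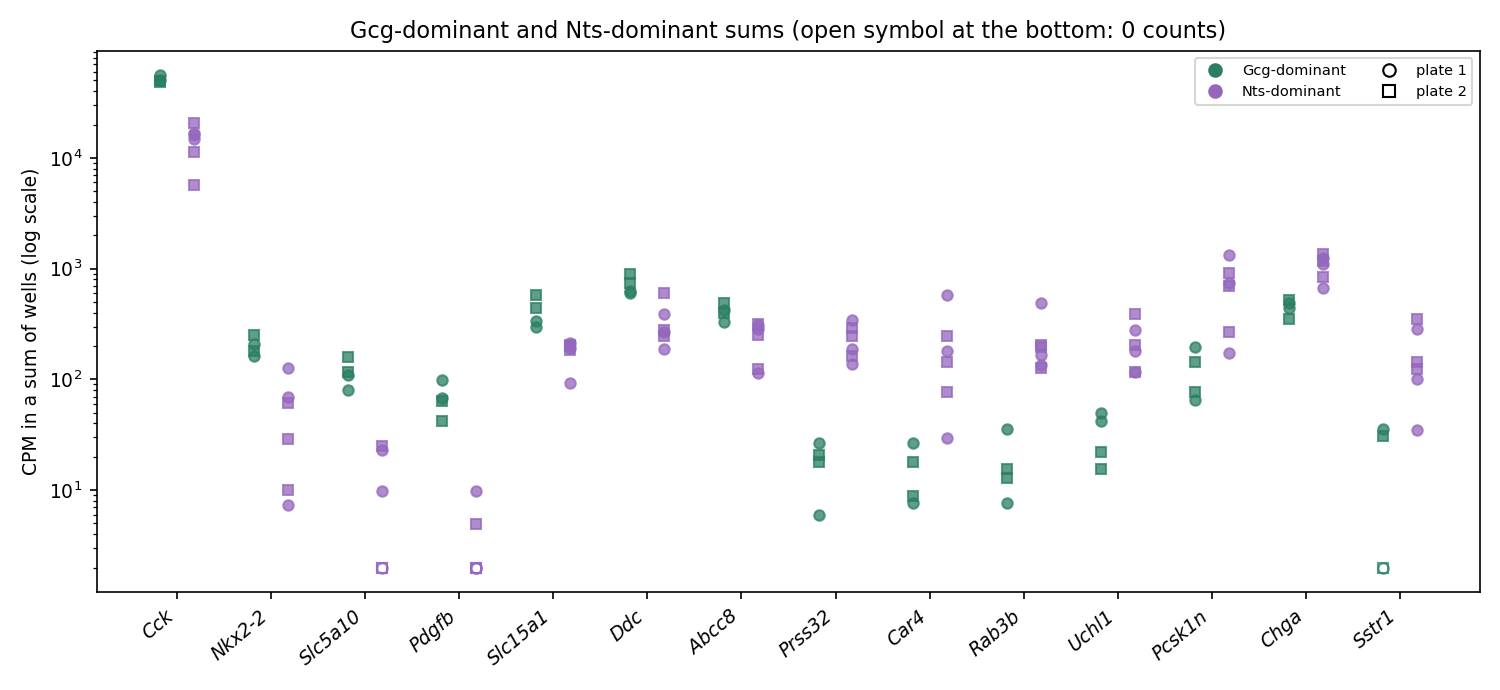
CPM of 14 genes in each sum of Gcg-dominant wells (4 sums) and Nts-dominant wells (6 sums), on a log axis, with circles for plate 1 and squares for plate 2. The classes do not overlap for Cck or Nkx2-2, which are higher in members, nor for Prss32, Rab3b, Uchl1 or Chga, which are lower.

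Slc5a10, Car4, Prss32, Clstn2, Serpina1e, Rab3b, Uchl1, Pcsk1n, Ptprn2 and Agr2 kept their call under every alternative in which they were tested. Calls of Cck, Nkx2-2, Coch, Fmo1, Nr1h4, Hmgn3, Sel1l3, Ctsh, Gpr119, Reg4, Nt5e, Prrx2 and Rcn1 were lost when untreated wells alone were compared, where the Nts-dominant class has 16 wells. Without 1 plate, Reg4, Pdgfb and AW551984 lost their call when plate 1 was left out, Coch, Hmgn3, Sel1l3, Slc15a1, Sstr1, Prrx2 and Rcn1 when plate 2 was, and Fmo1, Ctsh and Nr1h4 in either case.

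Markers of other cells were read in the same sums. The enterocyte list (11 of 18 genes tested, none called) summed to 26157 to 30947 CPM in members and 12426 to 26891 CPM in Nts-dominant sums. Alpi, the brush border phosphatase that marks enterocytes, stood at 4.44 to 30.4 CPM in members. Apoa1, an enterocyte apolipoprotein, stood at 53.3 to 86.5 CPM in members and had a median of 0.041 per 1000 in members against 4.86 per 1000 in reference wells. The enterocyte list reached 20 per 1000 in 86 of 138 members, and without wells rich in it or in goblet genes 121 genes differed between the classes, 83 of them shared with the full comparison. The goblet list (6 of 10 tested, only Agr2 lower) summed to 657 to 1128 CPM in members and 550 to 2018 CPM in Nts-dominant sums. Agr2, a goblet cell chaperone, was lower, at -2.17 ± 0.35 (adjusted p = 5.4e-05). The tuft list summed to 0 to 5.97 CPM in members, with Pou2f3, Gfi1b and Alox5ap at 0 in all sums, the Paneth list to 11.4 to 134 CPM, and the crypt list to 62.6 to 101 CPM. Nuclear RNAs such as Malat1 summed to 4235 to 8142 CPM in members and 6172 to 10194 CPM in Nts-dominant sums. The part of these cells and of RNA quality in the gene differences was not tested.

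After 24 h of BMP4, 15 of 6229 genes differed from untreated members (0.241%): 14 rose (0.225%) and 1 fell (0.0161%). The genes that rose included the BMP targets Id1, Id2 and Id3, the hormone gene Sct, the somatostatin receptor Sstr1 and the transcription factors Tbx3 and Neurod1. Of 6 BMP targets tested, 3 rose, with a median log2 change of 3.50 over the 6, against 0.00 over all genes. Id1 counts went from 2 and 1 in untreated members of plates 1 and 2 to 45 and 57 at 24 h. Its ratio was 28.2 (exact 95% counting interval 9.38 to 139), the fitted log2 change was 4.73 ± 0.54 (SE), and the adjusted p was 2.1e-08 (edgeR). Id1 was found in 3 of 73 untreated members and 27 of 62 at 24 h. Id2 stood at 72.2 CPM on each plate untreated and at 603 and 642 CPM at 24 h, a rise of 3.18 ± 0.25 (adjusted p = 2e-13) that reached 48 of 62 members, against 19 of 73 untreated. Id3 went from 0 and 12.9 CPM to 218 and 113 CPM, a rise of 4.37 ± 0.53 (adjusted p = 3.6e-06). No untreated sum reached a 24 h sum for any of the 3 genes. The inhibitory Smads did not pass: Smad7 had 1 count untreated and 22 at 24 h (3.83 ± 1.15, adjusted p = 0.27), and Smad6 differed by 1.75 ± 1.27 (adjusted p = 1). Skil, a Smad repressor, differed by 0.72 ± 0.59. Of 6 BMP receptor and Smad genes tested, 0 passed, with a median of -0.21.

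The start regions of Id2 and Sct are shown because both genes rose. The capitals mark GGCGCC, a GC-rich sequence known from BMP-responsive Id gene elements, which reads the same on either strand and is held by 9.6% of the 32851 windows of 250 bases before RefSeq starts (GRCm38.p6). Of Gcg, Sct, Id1, Id2 and Id3, 4 of 5 had an entry among those windows, all but Id1.
Id2 (chr12:25096306-25096335, minus strand, the match lying 225 bases before the start): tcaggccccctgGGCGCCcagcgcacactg
Sct (chr7:141279134-141279383, minus strand): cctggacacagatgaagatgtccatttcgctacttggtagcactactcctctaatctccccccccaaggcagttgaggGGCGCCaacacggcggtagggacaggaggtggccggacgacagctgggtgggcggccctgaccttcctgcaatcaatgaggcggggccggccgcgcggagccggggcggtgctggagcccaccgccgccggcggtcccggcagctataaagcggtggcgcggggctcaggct
Id2 and Sct each hold 1 match. The Gcg window holds none, and neither does that of Id3, which also rose. The Id2 stretch lies before the RefSeq start but inside the GENCODE span of the gene, which ends at 25097140. The whole Id3 window (chr4:136143572-136143821) lies inside a GENCODE exon of Id3, which spans 136143497 to 136144178. A match describes the letters of the window and is not a site.

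Of the 6 hormone genes tested, Sct passed in this fit. It stood at 2351 and 2814 CPM in untreated members of plates 1 and 2 and at 16285 and 14628 CPM at 24 h, a rise of 2.63 ± 0.22 (log2, SE, adjusted p = 2.1e-12, edgeR). It was found in 72 of 73 untreated members, so nearly every untreated member already held some. The well medians went from 20.1 to 128 per 10000 on plate 1 and from 18.7 to 67.5 on plate 2, and at 24 h the wells spread from 1.87 to 645 per 10000. Sct exceeded Gcg in 12 of 62 members at 24 h and in 0 of 73 untreated. Pyy stood at 11233 and 7606 CPM untreated and 16330 and 24866 CPM at 24 h (1.18 ± 0.32, adjusted p = 0.41), with the larger difference on plate 2. Its call turned with the setting: it passed without a filter (adjusted p = 8.8e-07), with thinned wells (adjusted p = 0.044) and without the 4 day sums (adjusted p = 0.023). Cck stood at 50701 and 48323 CPM untreated and 55605 and 49417 CPM at 24 h (0.14 ± 0.39, adjusted p = 1). Gip (2.26 ± 1.25), Ghrl (-1.53 ± 1.21) and Sst (-0.07 ± 0.26) did not pass either, with adjusted p = 1 for each, but Ghrl passed when Gcg had to exceed Nts 4 times (-1.90, adjusted p = 3.9e-18). Ghrl reached 100 per 10000 in only 5 of 73 untreated members and 1 of 62 at 24 h, with medians of 2.48 and 0.731. Fap, a serine protease given as a marker, differed by -0.59 ± 0.22 (adjusted p = 0.71) and Etv1 by -0.07 ± 0.20.

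Sstr1 had 0 counts in all 73 untreated members and 12 and 14 counts at 24 h on plates 1 and 2, spread over 19 of 62 members. Against a floor of 3 counts over the untreated group it was at least 7.18-fold higher (adjusted p = 0.0012). Tbx3 went from 34.2 and 20.6 CPM to 179 and 189 CPM, a rise of 2.86 ± 0.35 (adjusted p = 1.7e-07). Neurod1, a basic helix-loop-helix factor of maturing endocrine cells, went from 1690 and 2188 CPM to 3794 and 3319 CPM, a rise of 0.92 ± 0.19 (adjusted p = 0.0045). Of 21 enteroendocrine transcription factors tested, Tbx3 and Neurod1 were the 2 that passed. In the granule list 2 of 22 rose: Resp18, a protein of dense core granules, from 232 and 191 CPM to 725 and 362 CPM (1.37 ± 0.22, adjusted p = 0.00013), and Pcsk1n, from 64.6 and 77.3 CPM to 197 and 142 CPM (1.26 ± 0.27, adjusted p = 0.014). Bdnf, a neurotrophin, rose by 1.53 ± 0.33 (adjusted p = 0.014) and Cyp2c65, a P450 enzyme, by 1.02 ± 0.23 (adjusted p = 0.0195). Nt5e rose by 2.11 ± 0.50 (adjusted p = 0.04). Fam101a, an actin regulator, went from 3 to 48 counts over both plates, a ratio of 13.3 (4.28 to 66.6). Reg4 passed too, at 3.81 ± 0.54, but 88 of its 120 counts at 24 h came from 1 well and 30 from another. The gene that fell was Eif4ebp1, a repressor of translation initiation, from 79.8 and 121 CPM to 14.9 and 26.6 CPM, at -2.17 ± 0.49 on the log2 scale (adjusted p = 0.022). Id1, Id2, Id3, Tbx3 and Sct kept their call under every alternative in which they were tested. DESeq2 called 6 of the 15, and Sstr1, Fam101a, Nt5e, Bdnf, Neurod1, Resp18, Pcsk1n, Cyp2c65 and Eif4ebp1 were those it did not call. Without wells rich in enterocyte genes 7 genes passed, all among the 15.

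**Figure D4:**
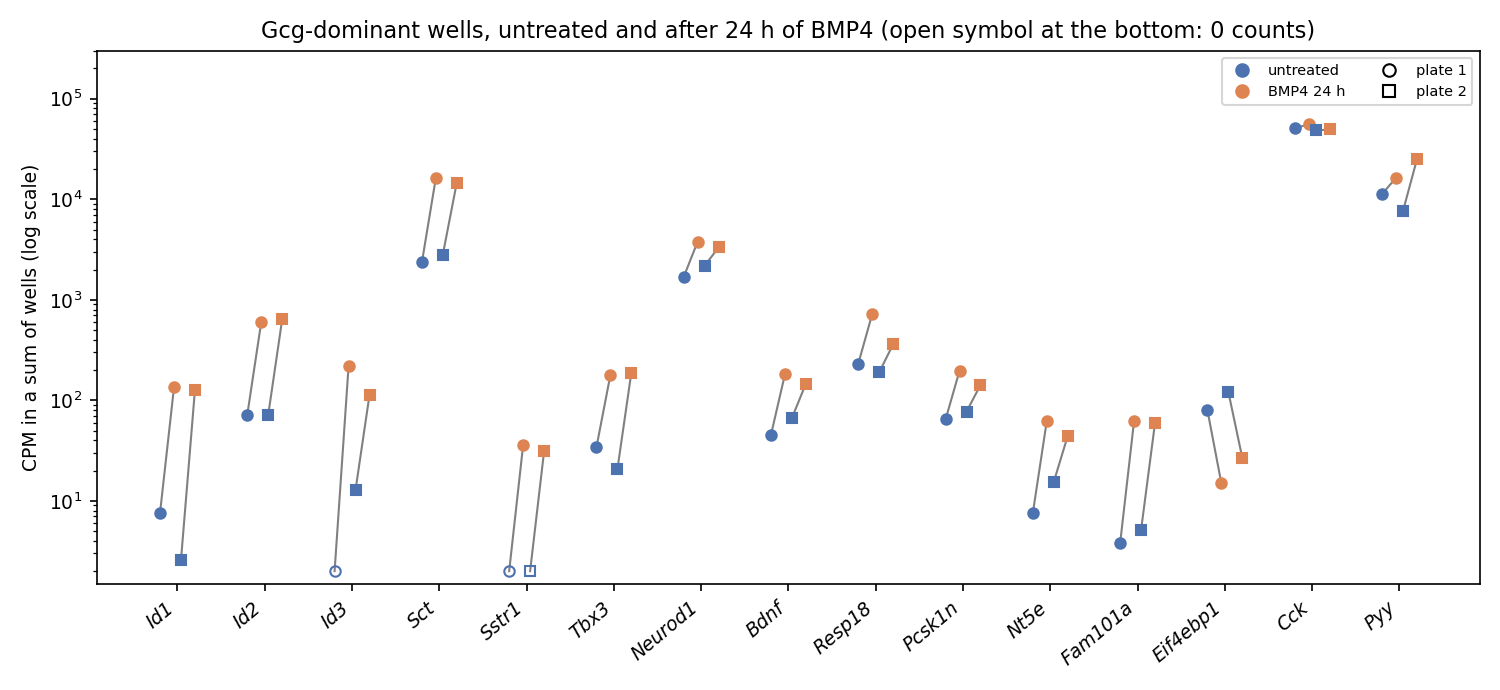
CPM of 15 genes in Gcg-dominant wells summed per plate, untreated (blue) and after 24 h of BMP4 (orange), on a log axis; lines join the sums of a plate. Id1, Id2, Id3, Sct and Tbx3 are higher at 24 h on both plates, Eif4ebp1 is lower, and Cck lies between 48323 and 55605 CPM.

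Lists with no called gene at 24 h included enterocyte (0 of 11, median 0.17), goblet (0 of 6, median -0.06), electrical excitability (0 of 10), unfolded protein response (0 of 10, median -0.02), and interferon and antigen presentation (0 of 4). Over all genes 15 of 6229 passed (0.241%), so 0 calls in lists this short say little about the lists. In the amino acid stress list, 0 of 5 genes passed, 5 of 5 had negative values and the median was -1.30. Its genes Nupr1, a stress-induced chromatin protein, and Asns, asparagine synthetase, differed by -1.85 ± 0.46 (adjusted p = 0.065) and -1.30 ± 0.32 (adjusted p = 0.072). Asns stood at 262 and 245 CPM untreated and 113 and 84.4 CPM at 24 h, without overlap. Malat1 differed by -0.46 ± 0.21 and Neat1 by -0.57 ± 0.22, neither past the threshold.

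Whether members and Nts-dominant wells responded differently at 24 h was tested as a difference of responses. It was past the threshold for 6 of 6229 genes (0.0963%), 3 with a higher response in members (0.0482%) and 3 with a lower one (0.0482%). Gfra3, a co-receptor for artemin, stood at 452 and 423 CPM untreated and 331 and 224 CPM at 24 h in members, and at 611 and 432 CPM against 72.7 and 89.7 CPM in Nts-dominant wells. Ly6e, a membrane protein, stood at 535 and 417 CPM and then 567 and 515 CPM in members, against 680 and 658 CPM and then 254 and 135 CPM in Nts-dominant wells. Spink4, a goblet-associated protease inhibitor, and these 2 genes fell in Nts-dominant wells (log2 -2.70 for Spink4, -2.53 for Gfra3 and -1.70 for Ly6e), and none of the 3 passed in members. The reverse held for Cdkn1a, the cell cycle inhibitor p21, which stood at 968 and 920 CPM untreated in members and at 92.3 and 165 CPM in Nts-dominant wells. At 24 h it stood at 591 and 828 CPM in members and 429 and 498 CPM in Nts-dominant wells. Lgals2, a galectin, and Mgll, a lipase of monoacylglycerols, rose in Nts-dominant wells by 2.27 and 1.86 and were at 0.42 ± 0.17 and 0.10 ± 0.21 in members, neither of which passed. The untreated Nts-dominant sums rest on 9 and 7 wells, and DESeq2 called Lgals2 alone of the 6. None of the 6 was called when wells with at least 20 enterocyte or goblet list transcripts per 1000 were left out, where 2 other genes passed, or when wells were thinned to 2000 transcripts, where edgeR called 0 genes (67 at an unadjusted p under 0.05). The part of depth and of the enterocyte genes in these differences was not tested.

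The Id2 and Sct responses were past the threshold in each class and their difference was not. Id2 rose by 3.18 ± 0.25 in members and 4.94 ± 0.43 in Nts-dominant wells, with a difference of -1.76 ± 0.64 (adjusted p = 0.579). Sct rose by 2.63 ± 0.22 and 3.72 ± 0.24, with a difference of -1.08 ± 0.31 (adjusted p = 0.256). Pyy was past the threshold in Nts-dominant wells (2.55 ± 0.34) and not in members, and the difference of -1.37 ± 0.46 did not pass (adjusted p = 0.584). Fap fell, at -1.95 ± 0.27, in Nts-dominant wells and was at -0.59 ± 0.22 in members, with a difference of 1.36 ± 0.35 (adjusted p = 0.25). Nkx2-2 fell, at -3.34 ± 0.80, in Nts-dominant wells and was at -0.37 ± 0.27 in members, with a difference of 2.97 ± 0.85 (adjusted p = 0.26). Over all genes, 56 passed at 24 h in Nts-dominant wells (0.899%), 38 upwards (0.61%) and 18 downwards (0.289%).

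**Figure D5:**
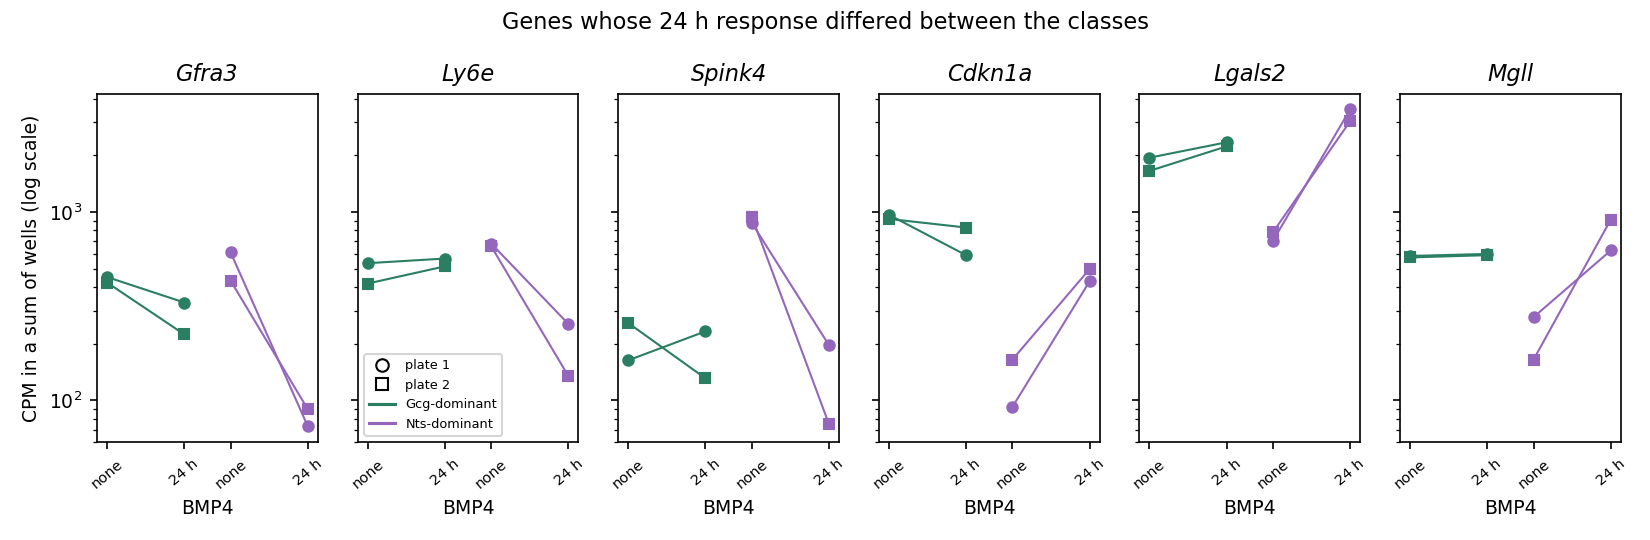
CPM of the 6 genes whose 24 h response differed between the classes, on a log axis, in Gcg-dominant (green) and Nts-dominant (purple) wells summed per plate. Mgll lies between 575 and 600 CPM in members and is higher at 24 h than untreated in Nts-dominant wells on both plates.

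After 4 days of BMP4, 3 members were left, too few for a sum or a test. The first, on plate 1, held 17756 transcripts with 202 Gcg, 352 Cck, 132 Sct and 20.4 Pyy per 10000, and 0 Id1 and Id3 counts. The second, also on plate 1, held 25995 transcripts with 167 Gcg, 428 Cck, 611 Pyy, 697 Gip and 318 Sct per 10000, so Gcg was the lowest of its 5 main hormones. The third, on plate 2, held 2913 transcripts with 235 Gcg, 214 Cck, 432 Ghrl and 41.3 Nts per 10000. All 3 held Cck above 200 per 10000, and Gcg lay well below the untreated medians. In 56 Nts-dominant wells at 4 days, the Gcg median was 18.6 per 10000.

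Over the members themselves, few genes followed Gcg from well to well. Among 1565 genes found in at least 20% of thinned members, Fap had the highest Spearman correlation with Gcg, 0.45 over 56 wells of plate 1 and 0.35 over 82 of plate 2. At 24 h alone it was 0.58 over 28 wells and 0.53 over 34. The next were Ndufs3, a subunit of respiratory complex I, at a mean of 0.28, Krtcap2, of the oligosaccharyltransferase, at 0.28, Srsf6, a splicing factor, at 0.27, and Tmem98 at 0.26. Sct had the most negative correlation, -0.60 and -0.37 on the 2 plates, and at 24 h alone -0.48 and -0.56. Among untreated members Sct stood at 0.05 and -0.16 and Fap at 0.02 and 0.28. Cck correlated with Gcg at 0.33 and 0.32 untreated and at -0.05 and -0.43 at 24 h. These wells share a plate and a depth of 2000 transcripts, and Gcg was part of the rule, so the values describe the members only.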

How the data were processed

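Single cells were sorted into 384-well plates and sequenced by SORT-seq, a plate form of CEL-seq2. The authors deposited expected counts, that is transcript numbers estimated from molecular identifiers, with 1 table per plate. The submitters' processing notes name BWA 0.6.2-r126 and the build mm10; counter, annotation and strand: not given in the sources used here, so overlapping and antisense genes may share counts. The deposited values are whole after inversion for 4096 identifiers in 100.0% of cases on each plate (tolerance 0.01), while the labels describe shorter identifiers. Wells were assigned to conditions by the labels, which match the deposited well list in 768 of 768 wells. No doublet caller was run, since each well received 1 sorted cell.

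The members, gene lists and tests were chosen with earlier results of these data known. Counts were summed by class, plate and condition (at least 5 wells), rounded, and tested with edgeR 4.0.16 (TMM, quasi-likelihood, Benjamini-Hochberg) in R 4.3.3 with limma 3.58.1, with plate as a block since every condition lies on each plate. The 10 sums left 5 residual degrees of freedom in the class fit and 4 in the fit behind the 24 h tests. In the class fit the residual also holds any change of the class difference between conditions. Gcg, Nts and Kcnq1ot1 were left out of totals and tests. Alternatives included DESeq2 1.42.0, other filters, thinning, plates left out and no block. Same-plate sums deviated together only weakly (correlations 0.004 to 0.069 over 10 pairs). Named genes were the 10 most positive and 10 most negative past an adjusted p of 0.05 whose sign matched between plates and whose mean log2 CPM was 5 or more, all tested hormones and BMP targets, and up to 4 genes of each other list by p; others were named after their values were seen. Tables were handled with numpy 2.4.6, pandas 2.3.3 and scipy 1.17.1. On simulated data the class test recovered 77.8% of genes changed by 2 on the log2 scale and 14.7% of those changed by 1, run on 6066 genes; the 24 h test recovered 30% and 1%, run on 6178 genes. Some results of the class comparison are not reported here.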

Additional observations from a re-analysis of the deposited data

Results flagged for a closer look

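The response to 24 h of BMP4 differed between Gcg-dominant and Nts-dominant wells by a test of the difference for 6 genes (edgeR; members minus Nts-dominant, log2 ± SE). For Gfra3 the difference was 1.91 ± 0.41 (adjusted p = 0.0231), with -0.62 in members and -2.53 in Nts-dominant wells. For Ly6e it was 1.96 ± 0.34 (adjusted p = 0.00167), and for Spink4 2.47 ± 0.47 (adjusted p = 0.0136). For Cdkn1a it was -2.41 ± 0.43 (adjusted p = 0.00302), with -0.34 in members and 2.07 in Nts-dominant wells. For Lgals2 it was -1.86 ± 0.27 (adjusted p = 4.3e-05), and for Mgll -1.77 ± 0.37 (adjusted p = 0.0175). The test was added after the 4 day one could not be run.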

How the results depend on the processing

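The 197 genes that differed between the classes became 116 with DESeq2, 22 with thinned wells (1028 genes tested), 121 without wells rich in goblet or enterocyte genes and 83 to 101 with a plate left out. They became 88 in untreated wells alone and 114 in 24 h wells alone, both chosen after seeing the data. Of the calls, 46.2% were higher in members, against 32.8% with DESeq2 and 59.1% without a filter, where the median of all genes moved to 0.137. The 15 genes at 24 h became 6 with DESeq2, 23 with at least 10 wells a sum, 24 without a filter, 41 when the dominant hormone had to exceed the other 4 times, 5 with thinned wells and 7 without goblet or enterocyte rich wells. The 6 response differences became 1 with DESeq2, 18 without a filter, 18 with the ratio of 4, 0 with thinned wells (edgeR; 67 at an unadjusted p under 0.05) and 2 without goblet or enterocyte rich wells. With no replicate block the counts were 189, 14 and 6. With a plate left out the 24 h comparison has no residual degrees of freedom, and its 15 genes kept their sign. For shares of members, Cck at 24 h was 98.5% from 10 transcripts on. Pyy untreated was 72.7% unthinned, 81.9% from 1 transcript and 45.2% from 10; at 24 h it was 87.8%, 83.4% and 54.7%. Sct untreated was 86.4%, 94.0% and 11.5%, and at 24 h 98.5%, 97.1% and 62.2%. No named gene past the threshold reversed, but among all 197 class genes 185 of the 188 tested kept their sign without goblet or enterocyte rich wells and 196 of 197 did in untreated wells alone; of 56 genes at 24 h in Nts-dominant wells, 55 kept it without those rich wells. The causes were not tested. The planned 4 day comparisons were not run, since 3 members were left.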
